A study of Mus musculus with 6 samples.

Results

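The genes of the cytosolic ribosomal proteins were followed in liver RNA of male C57BL/6 mice that were fed normal chow or chow with polyethylene microplastic (PE-MP) for 71 weeks. They were chosen by symbol from the deposited table of counts: Rpl or Rps with a number and an optional a, x, l or l1, together with Rplp0, Rplp1, Rplp2 and Rpsa. This rule took 86 of 56674 rows, 53 of the large subunit and 33 of the small subunit, and left out the rows with "-ps" in their symbol. Rpl32l, Rpl6l, Rps4l and Rps12l1 had no coding sequence in the annotation used here. They were kept as the rule takes them, and all but Rps12l1 were tested. Rps3a1, Rpl36al and Fau also encode ribosomal proteins but lie outside the rule, and they are described with the other translation genes. Each chow had 3 libraries, and both groups shared strain, sex, tissue and time on the chow. The labels give neither a dose of PE-MP nor an age at the start. Nor do they tie each library to its own mouse, so the p-values here speak of variation among libraries, part of which can be technical.

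The cytosolic ribosome is built from a large (60S) subunit, which forms peptide bonds, and a small (40S) subunit, which binds and decodes mRNA. Nearly every ribosomal protein is present once per ribosome, and cells usually make these proteins together with ribosomal RNA. Their mRNAs are short and abundant, and most begin with a 5′ terminal oligopyrimidine (TOP) tract, a C followed by a run of C and T bases, through which mTORC1 and the binding protein Larp1 control translation. Such control acts on translation and need not appear in the mRNA level, which is what was measured here. In the liver, ribosomal protein mRNAs are made mostly in hepatocytes, which secrete much of the blood's protein.

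Start sites of 63 of the 86 members were found by symbol in the RefSeq promoter table of build GRCm38.p6. The windows below hold 15 bases before and 15 bases from the annotated start, 5′ to 3′ on the strand of the gene, with the longest run of C or T in capitals. They are shown for members on which the results turn: 2 of each subunit among those with the smallest p between chows, and Rpl5 and Rps6, whose fold changes lay near 0.
Rpl38, large subunit, chr11:114668565-114668594, + strand: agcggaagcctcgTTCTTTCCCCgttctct
Rpl41, large subunit, chr10:128549154-128549183, − strand: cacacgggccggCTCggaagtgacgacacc
Rpl5, large subunit, chr5:107900513-107900542, + strand: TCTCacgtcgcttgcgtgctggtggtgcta
Rps15, small subunit, chr10:80292416-80292445, + strand: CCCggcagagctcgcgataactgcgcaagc
Rps27l, small subunit, chr9:66946071-66946100, + strand: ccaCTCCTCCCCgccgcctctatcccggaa
Rps6, small subunit, chr4:86857353-86857382, − strand: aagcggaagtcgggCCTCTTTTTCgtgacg

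The windows of Rpl38, which had the smallest p of all members, and of Rps6, whose TMM fold change was nearest 0, both carried runs of 10 bases across the start. The Rps15 and Rpl41 windows held runs of 3 bases. Over the 75 start windows of the members, 48% held a C or T run of at least 7 bases, against 18.6% of the 32851 start windows in the table. In the wider 300-base promoters (250 before to 50 after the start, both strands), CTTTCC stood in 49.3% of member promoters and 26.6% of all promoters. CCGGAAG, the core bound by ETS factors, stood in 34.7% against 8.86%, AAGATGGC, the core of the YY1 motif, in 10.7% against 2.75%, and TATAAA in 10.7% against 13.6%. These matches describe letters in annotated windows and show no binding, and a missing run says only that these letters are not in that window.

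Total counts per library were between 68357478 and 112566641 and did not separate the chows. Mitochondrially encoded rows took 14.9% to 16.4% of counts in normal chow and 9.71% to 10.1% in PE-MP chow. The 18S and 45S rRNA rows took between 0.334% and 11.2%, and normal chow library 2 stood apart from the others with the highest value. The TMM scaling factors were 0.880 to 0.923 in normal chow and 1.07 to 1.17 in PE-MP chow, so that a scaling by total counts and a scaling by TMM differ between the chows. Over all 18043 tested genes, the median log2 fold change of PE-MP over normal chow was 0.02 with TMM and 0.32 with total counts. A fold change below is with TMM unless total counts are named. The 10 hepatocyte markers were all tested and summed to between 66025 and 82765 CPM of total counts (counts scaled to the same total in every library) in normal chow and to between 91515 and 97605 in PE-MP chow.

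The members together took, in libraries 1, 2 and 3, 1.30%, 1.27% and 1.38% of all counts under normal chow and 1.38%, 1.31% and 1.46% under PE-MP chow. The large subunit took 0.784%, 0.771% and 0.827% in normal chow and 0.827%, 0.791% and 0.886% in PE-MP chow. The groups overlapped, and the means of 0.794% ± 0.0295 (SD, n = 3) and 0.834% ± 0.0478 (SD, n = 3) gave p = 0.3 in the two-sided exact permutation test over libraries, whose smallest possible p is 0.1. The small subunit took 0.519%, 0.501% and 0.550% in normal chow and 0.549%, 0.523% and 0.577% in PE-MP chow, with means of 0.523% ± 0.0251 and 0.550% ± 0.0270 (SD, n = 3 each, exact permutation p = 0.3).

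As a share of the counts outside mitochondrially encoded and rRNA rows, the order of the means was the other way round. The large subunit then took 0.953%, 1.07% and 0.999% in normal chow and 0.986%, 0.907% and 0.988% in PE-MP chow (means 1.01% ± 0.0567 and 0.960% ± 0.0460, SD, n = 3 each, exact permutation p = 0.4). The small subunit took 0.631%, 0.692% and 0.665% in normal chow and 0.654%, 0.600% and 0.643% in PE-MP chow (exact permutation p = 0.4, n = 3 each). Neither share differed beyond the spread between libraries. In bulk tissue, fewer cells of a type and less RNA per cell cannot be told apart, here and for every level below.

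**Figure D1:**
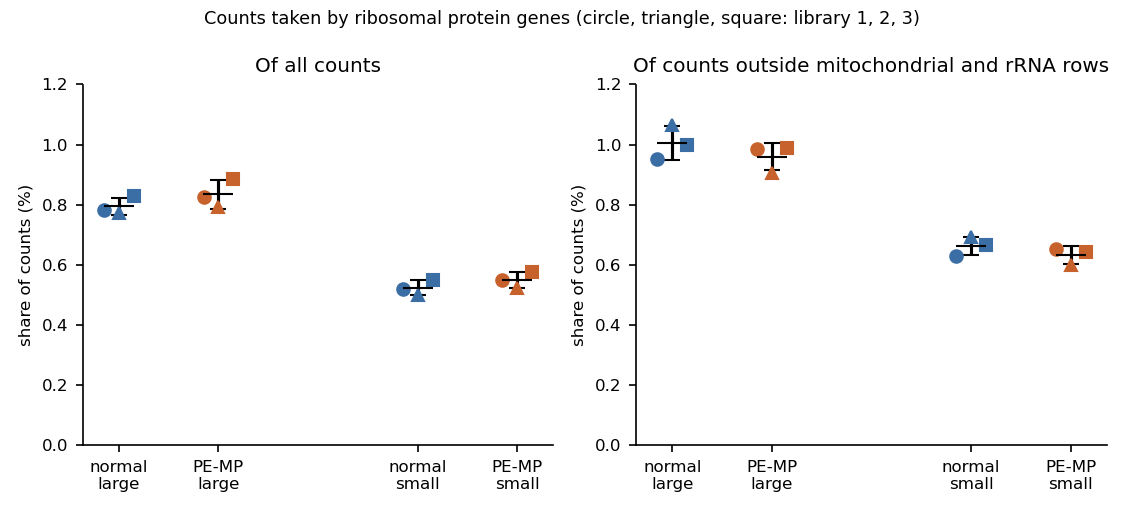
Percent of counts taken by the large and the small subunit genes in each library, with group means and SD (n = 3 libraries a chow); the left panel is of all counts and the right panel of counts outside mitochondrial and rRNA rows. The means were higher in PE-MP chow on the left (0.834% against 0.794% for the large subunit) and lower on the right (0.960% against 1.01%), and in every pair the chows overlapped.

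The ratio of the subunits was compared in the same way. Counts of the large subunit were 1.51, 1.54 and 1.503 times those of the small subunit in normal chow and 1.51, 1.51 and 1.53 times in PE-MP chow. The difference of the mean ratios was 0.0002 (exact permutation p = 1, n = 3 each). Without the 3 most abundant members of each subunit by count (Rpl4, Rpl13a and Rplp0, and Rps2, Rpsa and Rps14), the mean ratios were 1.66 ± 0.0087 in normal chow and 1.64 ± 0.0056 in PE-MP chow (SD, n = 3 each). These did not overlap, at the smallest p the exact permutation test allows, 0.1.

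Of the 86 members, 82 had enough counts to be tested, 50 of the large and 32 of the small subunit. No member passed an adjusted p of 0.05 in edgeR's quasi-likelihood test, in either direction; of all 18043 tested genes, 0% were called lower and 0.00554% higher. The smallest adjusted p by edgeR was 0.124 in the large subunit, for Rpl38, and 0.135 in the small subunit, for Rps15. At an unadjusted p under 0.05, 18 large and 10 small subunit members were lower in PE-MP chow and none was higher, where 8.82% of all genes were lower and 9.1% higher. That count of 28 came to 14 without normal chow library 3, to 13 without PE-MP library 2 and to 36 without normal chow library 2. The share of all genes at an unadjusted p under 0.05 was not counted in these reduced fits. The limma-voom fit called 0 members, and the share of all genes it called was not counted. DESeq2 called Rpl38, Rpl41 and Rps15 lower, where 2.55% of all genes were called lower and 2.62% higher. Without normal chow library 2, edgeR called 6 members lower (Rpl27, Rpl37a, Rpl38, Rplp2, Rps15 and Rps29), where 3.27% of all genes were called lower and 2.38% higher.

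With TMM, the members leaned to lower values in PE-MP chow. The log2 fold change was below 0 for 45 of 50 large and 31 of 32 small subunit members, and for 48.3% of all genes. The median was −0.24 in the large and −0.22 in the small subunit, from −0.97 (Rpl32l, without an annotated coding sequence) to 0.06 (Rpl7). All normal chow libraries lay above all PE-MP libraries for 31 large and 19 small subunit members, against 11.8% of all genes, and the reverse held for no member, against 14.2% of all genes. With total counts the medians were 0.06 and 0.08. There 28 of the 82 members were below 0, a larger share than the 23.6% of all genes. Groups then stood apart in the lower direction for 2 members, Rpl38 and Rps15 (2.65% of all genes), and in the higher direction for 17 (34.6% of all genes). On that scale the unadjusted p was under 0.05 for 1 member in the lower direction (2.18% of all genes) and for 4 in the higher direction (25.2% of all genes), and no member passed the adjusted test (0.0554% of all genes did so in the higher direction and 0% in the lower). Measured from the median of all genes, the subunit medians lay at −0.25 (large) and −0.24 (small) with TMM, a distance that a change of scaling leaves almost as it is.

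On the TMM scale, the spread between libraries bounds how large a difference could be, but the intervals leave out the choice of scaling. With total counts Rps6, for example, stood at 0.30, outside its TMM interval of −0.25 to 0.25. The 95% interval lay within 1 log2 unit on either side of 0 for 48 large and 31 small subunit members, and for 49.7% of all genes. The standard errors of the tested members were between 0.10 and 0.45 on the log2 scale, with medians near 0.12 in both subunits (0.1205 and 0.1178). The library values of the median member were as follows. On TMM-scaled CPM, the median large subunit member deviated from its own mean by 0.07, 0.11 and 0.15 log2 units in normal chow libraries 1, 2 and 3 and by −0.07, −0.19 and −0.11 in PE-MP libraries 1, 2 and 3. The small subunit gave 0.06, 0.08 and 0.20 in normal chow and −0.07, −0.17 and −0.11 in PE-MP chow. On CPM of total counts the chows overlapped: −0.05, −0.06 and 0.003 against 0.03, −0.06 and 0.12 for the large subunit, and −0.05, −0.11 and 0.05 against 0.02, −0.04 and 0.13 for the small subunit.

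**Figure D2:**
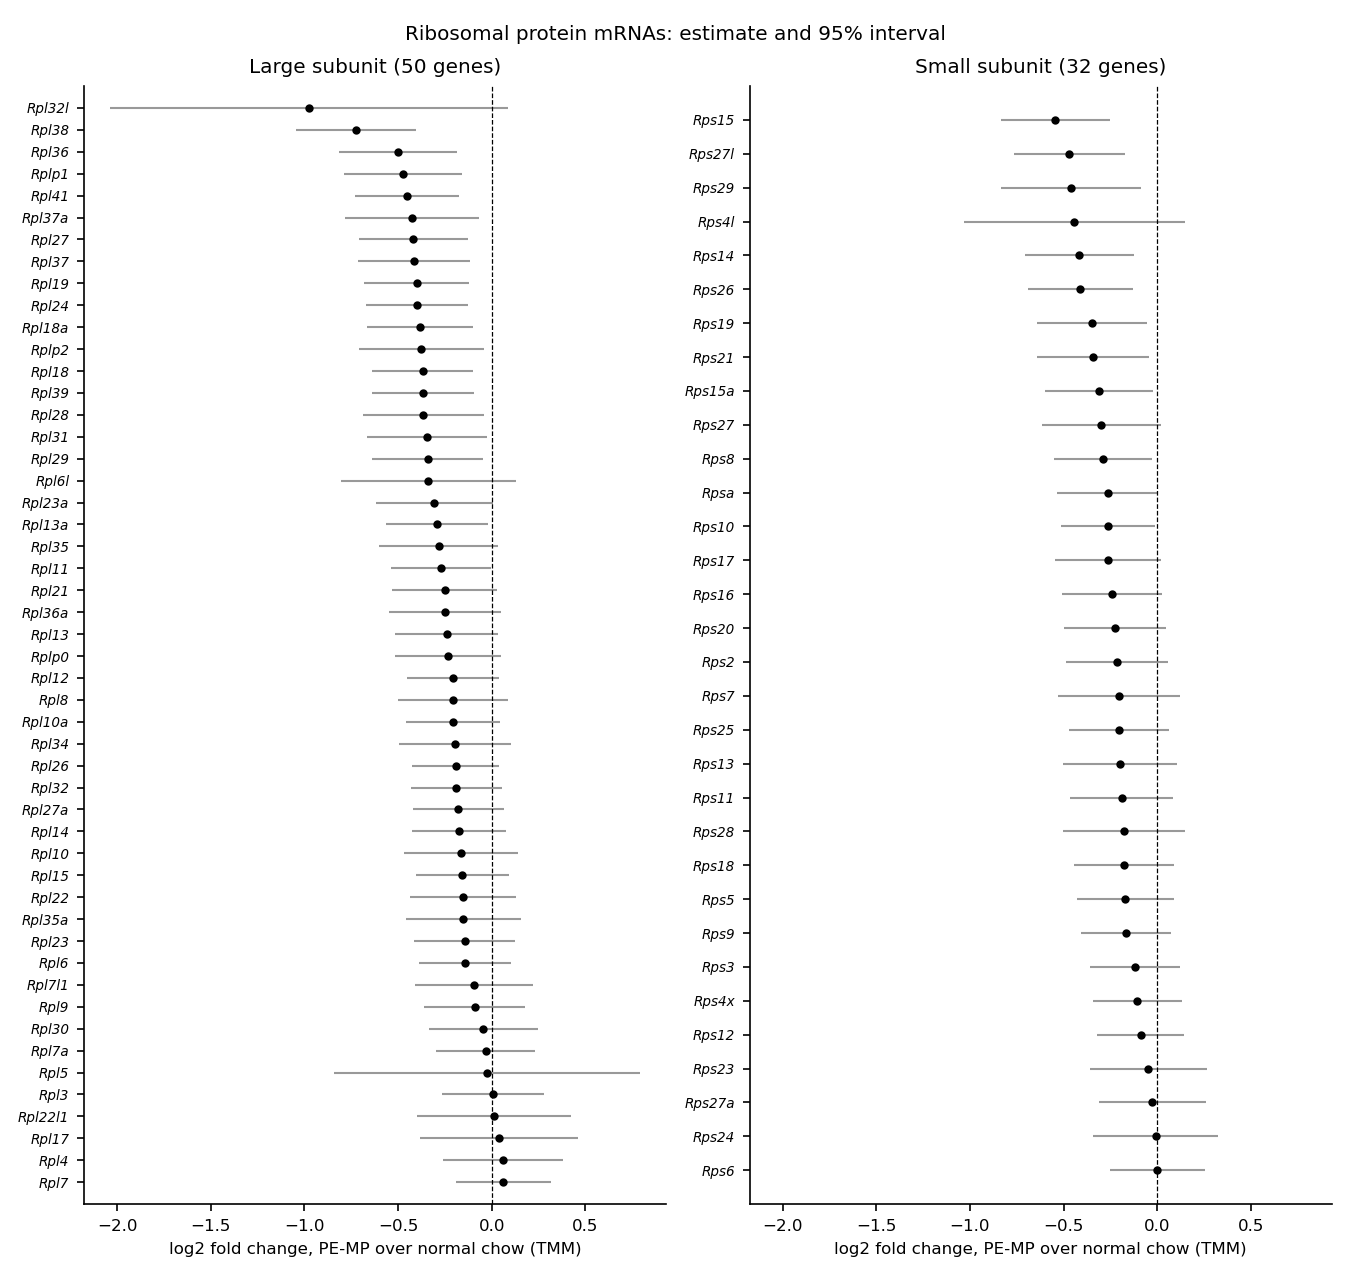
Log2 fold change of PE-MP over normal chow with its 95% interval for the 50 tested large and 32 tested small subunit genes, scaled by TMM and sorted by estimate (3 libraries a chow). With TMM, 76 of 82 estimates lay below 0; with total counts 28 did, and no gene passed an adjusted p of 0.05 in edgeR on either scale.

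Rpl38 had the smallest p of the large subunit. It encodes a small protein at the surface of the large subunit, known from mouse mutants with defects of the skeleton. Its levels were 95.5, 84.7 and 109.9 TMM-scaled CPM in libraries 1, 2 and 3 of normal chow and 58.8, 53.9 and 62.8 in those of PE-MP chow. Every normal chow library lay above every PE-MP library, and the log2 fold change was −0.72 ± 0.14 (SE), or 0.605 times the normal level, with an adjusted p of 0.124 by edgeR. With total counts it was also lower, at −0.42 (edgeR adjusted p = 0.143), with 88.1, 74.4 and 98.8 CPM in normal chow and 63.0, 58.7 and 73.5 in PE-MP chow, again without overlap. DESeq2 gave an adjusted p of 0.00343 for Rpl38.

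Rpl41 encodes one of the shortest proteins known, only 25 residues in the annotation used here, at the interface of the subunits. Its levels were 267, 262 and 283 TMM-scaled CPM in normal chow and 212, 178 and 202 in PE-MP chow. The chows did not overlap, and the fold change was −0.45 ± 0.12 (SE, log2, edgeR adjusted p = 0.154), or −0.15 with total counts. Rpl36, a protein of the large subunit with no bacterial counterpart, had 153, 149 and 182 TMM-scaled CPM in normal chow and 123, 103 and 116 in PE-MP chow. It too did not overlap between chows (−0.50 ± 0.13, SE, edgeR adjusted p = 0.157; −0.20 with total counts).

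The P stalk is the arm of the large subunit that recruits elongation factors. Rplp0 is its base, and Rplp1 and Rplp2 form the dimers that bind to it. Rplp1 had 329, 319 and 383 TMM-scaled CPM in normal chow and 275, 233 and 234 in PE-MP chow (−0.47 ± 0.13, SE, edgeR adjusted p = 0.172). Rplp2 had 146, 109 and 139.8 in normal chow and 106, 101 and 97.5 in PE-MP chow (−0.37 ± 0.14, SE, edgeR adjusted p = 0.239). Rplp0 had 385, 326 and 367 in normal chow and 324, 302 and 291 in PE-MP chow (−0.23 ± 0.12, SE, edgeR adjusted p = 0.348). All 3 stalk genes were lower in PE-MP chow without overlap with TMM, as were 50 of the 82 tested members and 11.8% of all genes. For Rplp0 and Rplp2, however, normal chow library 2 lay close to PE-MP library 1. With total counts the chows overlapped for all 3, with Rplp1 and Rplp2 at −0.17 and −0.08 and Rplp0 at 0.06.

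Rpl5 and Rpl11 bind the 5S rRNA, and free copies of this complex are known to hold back Mdm2 and so raise p53. Rpl5 had the largest standard error of all tested members other than Rpl32l, with 106, 234 and 198 TMM-scaled CPM in normal chow and 121, 189 and 219 in PE-MP chow. Its log2 fold change of −0.02 had an SE of 0.34 and a 95% interval from −0.84 to 0.79, and with total counts it was 0.30. Library 1 was the lowest of its group in both chows. Rpl11 had 209, 231 and 239.6 in normal chow and 191, 178 and 195 in PE-MP chow, without overlap (−0.27 ± 0.11, SE, edgeR adjusted p = 0.276), and stood at 0.04 with total counts.

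Proteins at the rim of the exit tunnel meet the growing peptide and the factors that bind it. Of the 7 genes in this group, 5 were lower in PE-MP chow without overlap with TMM (11.8% of all genes were), and with total counts none was lower (2.65% of all genes) and Rpl17 and Rpl26 were higher (34.6%) without overlap. The median was −0.31 with TMM and −0.0004 with total counts, and none passed the adjusted test. Rpl39, which lines the tunnel, had 69.3, 66.8 and 76.4 TMM-scaled CPM in normal chow and 50.6, 55.4 and 58.9 in PE-MP chow (−0.37 ± 0.11, SE, edgeR adjusted p = 0.192; −0.06 with total counts). Rpl10 joins the large subunit late, in the cytoplasm, and completes the site of peptide bond formation. Its chows overlapped, with 352, 284 and 340.4 TMM-scaled CPM in normal chow and 284, 279.9 and 308 in PE-MP chow, and its fold change was −0.16 ± 0.13 (SE) with TMM and 0.14 with total counts.

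In the small subunit, Rps15 had the smallest p. It sits in the head, and its tail reaches towards the decoding centre. Its levels were 261, 243 and 289 TMM-scaled CPM in libraries 1, 2 and 3 of normal chow and 196, 169.8 and 178 in those of PE-MP chow. The chows did not overlap, and the fold change was −0.54 ± 0.12 (SE, log2, edgeR adjusted p = 0.135; DESeq2 adjusted p = 0.0170). With total counts Rps15 was at −0.24 (edgeR adjusted p = 0.273), still without overlap: 240.5, 214 and 260.2 CPM in normal chow against 209.5, 185 and 209 in PE-MP chow.

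Rps26 and Rps14 lie with Rpsa at the place where mRNA leaves the small subunit. Rps26 had 144, 138 and 159 TMM-scaled CPM in normal chow and 119.7, 109 and 102 in PE-MP chow (−0.41 ± 0.12, SE, edgeR adjusted p = 0.175). Rps14 had 276, 279 and 308 in normal chow and 239, 210.2 and 198 in PE-MP chow (−0.42 ± 0.12, SE, edgeR adjusted p = 0.181). Neither overlapped between chows with TMM, and with total counts they stood at −0.11 and −0.12. Rpsa, which is also known as a laminin receptor, had 348, 329 and 365 in normal chow and 312, 278 and 277 in PE-MP chow, without overlap (−0.26 ± 0.11, SE, edgeR adjusted p = 0.286; 0.04 with total counts).

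Rps27l is a close copy of Rps27 and a known p53 target. Its levels were 139, 149 and 171 TMM-scaled CPM in normal chow and 109, 104 and 118 in PE-MP chow, without overlap (−0.47 ± 0.12, SE, edgeR adjusted p = 0.157; −0.16 with total counts). Rps27 had 171, 174 and 210.4 in normal chow and 150.4, 137 and 164 in PE-MP chow (−0.30 ± 0.13, SE, edgeR adjusted p = 0.304; 0.01 with total counts). Both genes were lower without overlap with TMM. Their reads can be hard to tell apart where the sequences match, so the division between them is uncertain.

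Rps2, at the entry of the mRNA channel, was the member with the highest level per kilobase in the small subunit. It had 531, 511 and 547 TMM-scaled CPM in normal chow and 491, 457 and 419.6 in PE-MP chow, without overlap (−0.22 ± 0.11, SE, edgeR adjusted p = 0.367; 0.08 with total counts).

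Rps6, whose protein is phosphorylated by the S6 kinases downstream of mTORC1, had a TMM fold change of 0.00 ± 0.11 (SE, 95% interval −0.25 to 0.25). It stood at 195, 219.99 and 201 TMM-scaled CPM in normal chow and 206, 203 and 207 in PE-MP chow. With total counts it was at 0.30, and there every PE-MP library lay above every normal chow library. Rps27a, made as a fusion with ubiquitin, overlapped between chows with TMM at 125, 149.96 and 146 in normal chow and 132, 135 and 146 in PE-MP chow (−0.03 ± 0.12, SE; 0.28 with total counts).

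Shares of the counts of the own subunit do not depend on how libraries are scaled against each other, although a lower share of one gene raises the shares of the rest. In the large subunit, 7 of 50 tested members took a lower share in every PE-MP library than in any normal chow library (Rplp1, Rpl41, Rpl38, Rpl36, Rpl24, Rpl18 and Rpl37), and 5 took a higher share (Rpl15, Rpl27a, Rpl7a, Rpl7 and Rpl4). Of all tested genes, set against the same large subunit counts, 4.41% were lower without overlap and 27.3% higher. In the small subunit, 4 of 32 were lower (Rps15, Rps14, Rps27l and Rps26) and 4 were higher (Rps9, Rps12, Rps3 and Rps6), where 4.51% and 27% of all genes were. The members make up the total they are divided by, and all genes do not. The percentages of all genes are therefore not a like background, and no conclusion is drawn from the comparison.

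Rpl38 took 1.12%, 0.965% and 1.19% of large subunit counts in normal chow and 0.762%, 0.742% and 0.830% in PE-MP chow. Rpl4 took 3.55%, 4.55% and 3.88% in normal chow and 4.62%, 5.08% and 4.98% in PE-MP chow. In the annotation used here Rpl38 encodes 70 residues and Rpl4, an extended protein that reaches the exit tunnel, 419. Rps15 took 4.64%, 4.27% and 4.73% of small subunit counts in normal chow and 3.82%, 3.54% and 3.62% in PE-MP chow, and Rps6 took 3.46%, 3.86% and 3.29% against 4.03%, 4.23% and 4.19%.

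**Figure D3:**
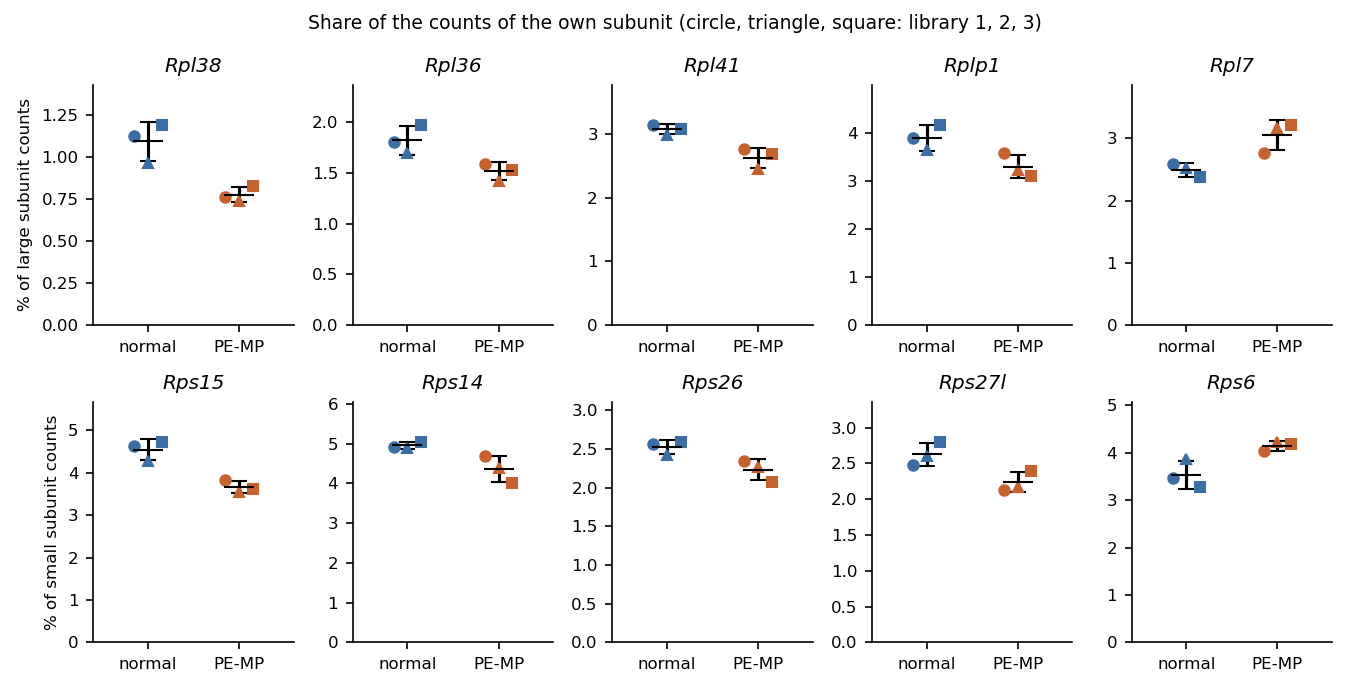
Share of the counts of its own subunit taken by each of 10 members in every library, with group means and SD (n = 3 libraries a chow, each axis from 0). In 8 panels, Rpl38, Rpl36, Rpl41, Rplp1, Rps15, Rps14, Rps26 and Rps27l, every PE-MP library lies below every normal chow library. For Rpl7 and Rps6 every PE-MP library lies above. The 10 members were picked: the 8 are the 4 of each subunit with the smallest edgeR p in these libraries, which nearly fixed their separation. Of tested members, 7 large and 4 small took a lower share without overlap, and 5 and 4 a higher one. Of all genes, set against the same subunit counts, 4.41% and 4.51% were lower and 27.3% and 27% higher. These are not a like background, since only the members make up the total.

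Some members are copies of a parent gene that are known from other tissues or that stand beside it in many. Rpl10l and Rpl39l, both known from the testis, and Rps12l1 had 0 counts in all libraries, where 3 counts would be 0.0267 to 0.0439 CPM of total. Rpl3l, known from heart and skeletal muscle, had 0, 7 and 8 counts in normal chow and 4, 0 and 12 in PE-MP chow and was not tested. Its parent Rpl3 had 179, 166 and 163 TMM-scaled CPM in normal chow and 162, 186 and 161 in PE-MP chow, with a log2 fold change of 0.01 ± 0.11 (SE), or 0.31 with total counts.

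Rpl22l1 had 11.2, 12.6 and 13.8 TMM-scaled CPM in normal chow and 10.2, 13.5 and 14.2 in PE-MP chow (0.01 ± 0.17, SE), and its parent Rpl22 had 95.02, 111.8 and 110.3 against 88.5, 94.9 and 101.8 (−0.15 ± 0.12, SE). The chows overlapped for both genes, and with total counts the fold changes were 0.32 and 0.15. Rpl7l1, a homologue of Rpl7 found in precursors of the large subunit, had 50.02, 51.5 and 48.4 in normal chow and 54.5, 41.4 and 44.5 in PE-MP chow (−0.10 ± 0.13, SE; 0.20 with total counts). Rpl7 itself had 219, 221 and 218 in normal chow and 214, 229.7 and 244 in PE-MP chow (0.06 ± 0.11, SE), overlapping with TMM and higher without overlap with total counts (0.37).

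Rps4l had 9.38, 13.8 and 13.8 TMM-scaled CPM in normal chow and 6.47, 9.98 and 10.7 in PE-MP chow (−0.44 ± 0.25, SE), and Rps4x had 239.6, 224 and 229 against 214, 217 and 212 (−0.11 ± 0.10, SE). With total counts these stood at −0.13 and 0.19. Rpl36a is shown here for the like-named Rpl36al and not as a copy. It had 64.8, 82.2 and 76.1 in normal chow and 66.2, 59.7 and 61.6 in PE-MP chow. Its chows overlapped (−0.25 ± 0.13, SE), and with total counts it stood at 0.05. Rows with low levels, such as Rpl32l with 14 to 43 counts in a library, can hold reads of their near-identical parents.

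Between genes, levels were compared per kilobase of transcript. In the large subunit the 46 members other than Rpl32l, Rpl6l, Rpl22l1 and Rpl7l1 had mean TMM-scaled CPM per kilobase between 87.1 and 592, with a median of 222. Rplp1 (592), Rpl41 (536) and Rpl10 (385) were the highest. In the small subunit the 30 members other than Rps4l and Rps27l lay between 27.3 and 494, with a median of 231. Rps2 (494), Rps27 (486) and Rps15 (446) led, while Rps20 was lowest at 27.3. That rank depends on the division by its annotated coding transcript of 3706 bases. Before division Rps20 had 111, 99.3 and 116 TMM-scaled CPM in normal chow and 89.0, 90.8 and 99.5 in PE-MP chow. Among the tested members, the lowest levels were those of Rpl32l (0.859) and Rpl6l (9.84) in the large and Rps4l (13.6) in the small subunit.

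Shorter and more GC-rich members had lower fold changes. Across the 82 tested members, which share libraries and are not independent replicates, Spearman's rho between the TMM fold change and transcript length was 0.428 (0.483 over 50 large and 0.358 over 32 small subunit genes), and with GC content it was −0.506 (−0.586 and −0.365). Over 17131 tested genes of known length these values were 0.237 and −0.193. The 27 shortest members, of 271 to 570 bases, had a median of −0.30 on the log2 scale, and 12 of them were lower at an unadjusted p under 0.05, where 8.82% of all genes were. The 28 longest, of 851 to 3706 bases, had a median of −0.18, and 3 of them had such a p. The middle 27 members had a median of −0.27 and 13 such members.

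After the trend of the fold change with length and GC content over all genes was taken out, the medians were −0.055 in the large and −0.027 in the small subunit, beside 0.02 over all genes. Rpl38 then stood at −0.26, Rps15 at −0.21 and Rps27l at −0.31, as values with no test, while Rpl41 stood at −0.07. The members are shorter than most liver genes, with a median length of 705 bases against 2375 bases. The part of this trend in the values of single members was not tested.

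**Figure D4:**
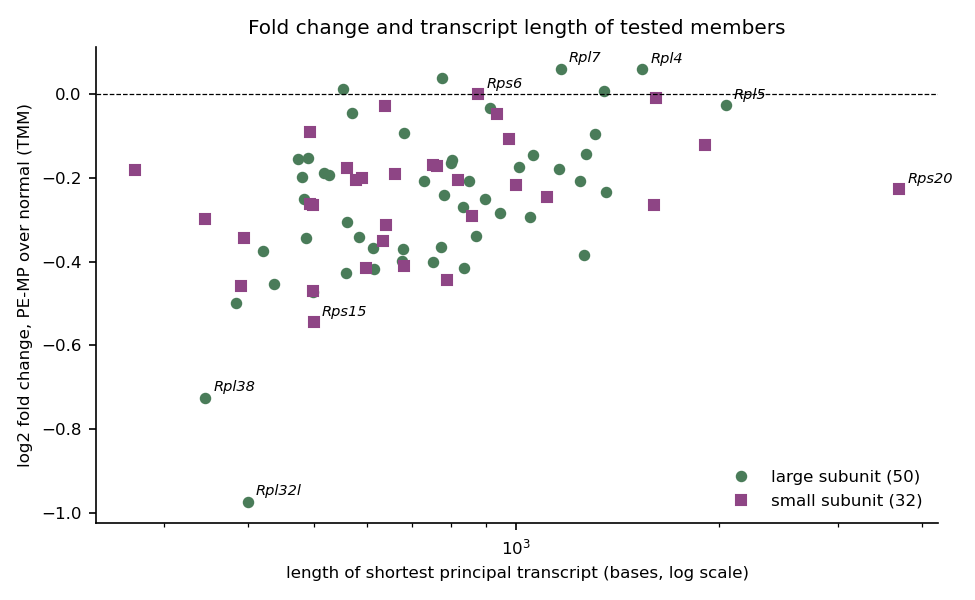
Log2 fold change of PE-MP over normal chow, scaled by TMM, against transcript length on a log axis for 50 large and 32 small subunit genes. Estimates are lower among short genes (median −0.30 in the 27 shortest) than among long ones (−0.18 in the 28 longest); with total counts the subunit medians were 0.06 and 0.08.

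The genes that build, start and control ribosomes were taken from lists of 172 genes, of which 167 were tested. None passed an adjusted p of 0.05 in edgeR; at an unadjusted p under 0.05, 11 were lower and 9 higher, where 8.82% of all genes were lower and 9.1% higher. DESeq2 called 8 of them (2.55% of all genes lower and 2.62% higher), and edgeR without normal chow library 2 called 7 (3.27% and 2.38%). The counts at an unadjusted p in each list below stand beside the same 8.82% and 9.1% of all genes, and each median is also given with total counts. Other mRNAs with a TOP tract had a median fold change of −0.12 (log2) with TMM and 0.18 with total counts, with 4 of 18 lower at an unadjusted p under 0.05. These included the ribosomal protein genes Fau and Rpl36al, which were lower without overlap with TMM (−0.34 and −0.35). Fau, made as a fusion with a ubiquitin-like protein, had 189, 174 and 209.8 TMM-scaled CPM in normal chow and 151, 148 and 155 in PE-MP chow. Rps3a1, also outside the rule, was at 0.05 ± 0.10 (SE; 0.35 with total counts), and with total counts Fau and Rpl36al stood at −0.03 and −0.05.

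Elongation factors had a median of −0.08 (0.22 with total counts). Eif5a, which helps ribosomes through stretches such as proline runs, had 344, 283 and 345 TMM-scaled CPM in normal chow and 251, 244 and 217 in PE-MP chow (−0.45 ± 0.13, SE, edgeR adjusted p = 0.179; −0.15 with total counts), and Eef1d was at −0.66 ± 0.32 (SE; −0.36 with total counts). Initiation factors had a median of 0.01 (0.31 with total counts), and 1 of 26 was higher at an unadjusted p under 0.05. This was Eif4g1, the scaffold of the cap-binding complex, with 111.8, 73.7 and 139 TMM-scaled CPM in normal chow and 252, 333 and 222 in PE-MP chow (1.32 ± 0.27, SE, edgeR adjusted p = 0.128; 1.61 with total counts). Eif2s2 was at −0.30 ± 0.14 (SE) with TMM and at 0.0008 with total counts.

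Ribosome biogenesis factors had a median of 0.03 (0.33 with total counts), with 2 lower and 1 higher of 45 at an unadjusted p under 0.05. Nop10, a protein of the particles that make pseudouridine in rRNA, had 48.7, 38.4 and 51.0 TMM-scaled CPM in normal chow and 31.2, 26.6 and 30.7 in PE-MP chow (−0.64 ± 0.15, SE, edgeR adjusted p = 0.137; −0.34 with total counts). Mdn1, the motor that strips factors from the large subunit precursor, was at 0.63 ± 0.17 (SE; 0.94 with total counts). RNA polymerase I genes had a median of 0.13 (0.44 with total counts), with 2 of 14 higher at an unadjusted p under 0.05, Taf1d (0.97 ± 0.26, SE; 1.28 with total counts) and Polr1b (0.54 ± 0.16, SE; 0.84 with total counts).

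Genes of mTORC1 and of TOP control had a median of −0.09 (0.21 with total counts), with 3 of 24 lower at an unadjusted p under 0.05. Castor2, an arginine sensor homologue, had 7.67, 5.46 and 7.93 TMM-scaled CPM in normal chow and 3.93, 3.61 and 3.26 in PE-MP chow (−0.96 ± 0.20, SE, edgeR adjusted p = 0.129). Eif4ebp1, a repressor of cap-dependent translation that mTORC1 switches off, was at −0.49 ± 0.13 (SE), without overlap. Host genes of small nucleolar RNAs had a median of 0.31 (0.61 with total counts), with 4 of 15 higher at an unadjusted p under 0.05, among them Snhg20 (1.27 ± 0.23, SE, edgeR adjusted p = 0.124) and Snhg17 (1.01 ± 0.24, SE). Genes of ribosome rescue had a median of 0.18 (0.49 with total counts), with Edf1 at −0.60 ± 0.14 (SE) and Zfp598 at 0.48 ± 0.14 (SE). The 6 genes named in these lists kept their sign with total counts.

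Markers of other liver cells also differed in level between the libraries, and their part in the values above was not tested. All 12 Kupffer cell markers had a TMM fold change above 0 (median 0.63, or 0.92 with total counts), summing to 130.3 to 181 CPM of total in normal chow and 237 to 354 in PE-MP chow, and all 10 endothelial markers were above 0 (median 0.31, or 0.60 with total counts). B and plasma cell markers had 9 of 10 below 0 (median −1.14, or −0.84 with total counts) and summed to 77.4 to 236 against 73.4 to 134 CPM of total. T and NK cell markers had 10 of 11 below 0 (9 with total counts), summing to 6.55 to 10.6 against 4.91 to 8.52. Adipocyte markers summed to 17.7 to 90.1 CPM in normal chow and 5.64 to 24.7 in PE-MP chow. Of the neutrophil markers Ly6g had 0 counts in all libraries, 4 of the 5 tested were above 0 (median 0.997), and the list summed to 0.835 to 1.24 CPM in normal chow and 2.31 to 2.68 in PE-MP chow. Erythroid markers had 4 of 5 above 0 and summed to 234 to 474 CPM against 537 to 671. Stellate cell and fibroblast markers had 8 of 9 below 0 (7 with total counts) and summed to 276 to 299 against 177 to 371, and cholangiocyte markers had 3 of 5 above 0 and summed to 11.5 to 23.6 against 22.6 to 26.6. No marker of these lists passed an adjusted p of 0.05 in edgeR, and the 10 hepatocyte markers had a median of 0.01 (0.31 with total counts).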

How the data were processed

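Liver RNA of 6 libraries, 3 per chow, was sequenced after poly(A) selection with a directional kit, per the labels' protocols. The authors deposited whole-number counts for each gene without normalisation, in all from 68357478 to 112566641 per library, which limits the precision of low genes most. The submitters' processing notes name bcl2fastq and build GRCm39, while an aligner, a counting program, an annotation and the strandedness of counting were not given in the sources used here. The 6 library files held the same values as the table of the whole series.

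Members, gene lists and tests were chosen with earlier results of these data known. Groups and replicate numbers came from the titles and the treatment characteristic; a protocol field shared by all 6 samples names the PE-MP chow for normal chow libraries too, and it was not used. All genes were fitted with edgeR 4.0.16 in R 4.3.3 (quasi-likelihood F test, robust dispersions, TMM factors, default expression filter, two-sided p adjusted by Benjamini-Hochberg over 18043 genes, threshold 0.05). Levels are TMM-scaled counts scaled to the same library total (CPM). Fold changes carry the fit's standard error and 95% interval. Shares and the subunit ratio were compared with a two-sided exact permutation test over libraries. The fit was tested on simulated counts. Alternatives were RLE factors, DESeq2 1.42.0, limma-voom (limma 3.58.1), no filter and a stricter filter (CPM of 1 or more in all libraries of a chow), each library left out, the replicate number as a block, mitochondrial and rRNA rows left out, and a spline on length and GC content; scaling by total counts was added after the data were seen.

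No label pairs the same-numbered libraries of the chows, so the main fit did not pair them. Their deviations correlated by 0.003, 0.040 and 0.136, which with 3 libraries a chow cannot decide whether they belong together. Transcript length and GC content came from GENCODE M21 (build GRCm38), from the shortest principal transcript where there was one, for all 86 members and 89.5% of rows. Coding length came from the same transcript where a coding sequence was annotated. Start sites came from RefSeq (GRCm38.p6), and coordinates are of that build, not of the counts. Named members were, per subunit, the 4 with the smallest p, the 3 highest and 2 lowest per kilobase, the P stalk, Rpl5, Rpl11, Rps6, Rpsa, Rps27a, copies and their parents, and the 2 genes with the smallest p of each other translation list; Rps3a1 and members named in counts were added after their values were seen. The 322 "-ps" rows held between 2.76% and 3.57% of the members' count total, and the counting could divide reads between members and these copies.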

Additional observations from a re-analysis of the deposited data

How the results depend on the processing

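With TMM or RLE factors, limma-voom, either filter, mitochondrial and rRNA rows left out and the replicate block, 0 members passed in edgeR or limma-voom and the subunit medians stayed below 0. Outside the main fit, the share of all genes called was not counted in these fits. DESeq2 called 2 large and 1 small subunit members and 8 other translation genes. Leaving out 1 library gave from 0 to 4 large and from 0 to 2 small subunit calls and from 0 to 7 calls of other translation genes, each highest without normal chow library 2. With total counts the medians turned to 0.0643 in the large and 0.0805 in the small subunit, and after removal of the trend on length and GC content they came to −0.055 and −0.0273. The share difference between chows turned to −0.0457 percentage points in the large and −0.03 in the small subunit outside mitochondrial and rRNA rows. The ratio difference turned to −0.0262 without the 3 most abundant members and ranged from −0.0081 to 0.0113 with 1 library left out. The cause of these shifts was not tested. With the replicate number as a block, 0 members passed and the medians were −0.24 and −0.22. In that fit 21 members had an unadjusted p under 0.05 against 28 without the block, and the share of all genes was not counted. Of 6 libraries, 3 correlated best with their own number. Rpl3l and Rpl32l had few counts, and 3 libraries per chow limit the precision of every comparison.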
